A study of Homo sapiens with 4 samples.

Results

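The solute carriers expressed in A549 cells were followed through 3 h of treatment with dexamethasone. A549 is an established human lung adenocarcinoma cell line, and dexamethasone is a synthetic glucocorticoid that acts through the glucocorticoid receptor. Members were the genes whose symbol is SLC, a family number, the letter A and a further number, and whose reads over all transcripts and all 4 libraries came to at least 200. Of 34484 gene symbols in the table, 333 had such a symbol and 154 of these reached 200 reads. The 34 mitochondrial carriers of the SLC25 family and 4 genes named in the rule (SLC7A11, SLC30A1, SLC2A1 and SLC2A3) were left out, which gave 116 members. The total of reads thus chose the members, and their levels are given as a description. The difference between the groups was not used in the choice. The total adds both groups, however, so a member near 200 reads can enter through the group where it is higher.

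RNA was sequenced from 2 libraries of cells that received 100 nM dexamethasone (dex) and 2 of cells that received only the vehicle, 0.02% ethanol (etoh), with no genetic change named in the labels, and all were sampled at 3 h. All 4 came from the same line, grown in F12K medium to near confluence, so the values describe a single tumour line. The libraries held between 9764159 and 11887526 reads aligned to named transcripts, and 3 reads in a library correspond to 0.252 to 0.307 CPM (the counts-per-million value, in which each library's aligned reads are the total). Whether replicate libraries were separate cultures is not stated in the labels. Every p-value therefore measures the spread among these 4 libraries alone, and that spread may be technical. In RNA from a whole culture, fewer cells with a transcript and less of it per cell cannot be told apart.

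Solute carriers are membrane proteins that move small molecules across the plasma membrane or the membranes of organelles, by facilitated diffusion, by exchange or by coupling to the gradient of an ion. They are grouped into numbered families by sequence, and families differ in what they carry, from amino acids and sugars to metals, nucleosides and vitamins. The glucocorticoid receptor is a transcription factor that binds DNA once it holds its hormone, and it raises some genes and lowers others within hours.

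The response of known hormone targets checked the labels. FKBP5, a co-chaperone of the receptor, stood at 232 and 229 CPM in dex and at 22.1 and 22.6 CPM in etoh. TSC22D3, the leucine zipper protein GILZ, stood at 174 and 161 CPM in dex and at 7.58 and 7.82 CPM in etoh. The summed epithelial markers, mostly the keratins KRT8, KRT18 and KRT7, were at 7350 to 8510 CPM in dex and at 4230 to 4900 CPM in etoh, and their part in the results below was not tested. Of the other expressed markers of that list, neither passed the test, with EPCAM at 8.34 and 8.53 CPM in dex and 8.50 and 11.3 CPM in etoh, and CDH1 at 37.3 and 35.6 CPM in dex and 32.6 and 34 CPM in etoh. Of the alveolar markers, NKX2-1, SFTPC and SFTPB were at or near 0 in every library, with 1 read of SFTPC in all. The blood markers summed to 1.98 to 3.15 CPM in dex and 1.84 to 2.10 CPM in etoh, with CD3E at 0 and a single read of PTPRC. The endothelial genes VWF and CDH5 summed to 0.269 to 0.509 CPM in dex and 0.252 to 0.307 CPM in etoh, with VWF at 0. The fibroblast markers, almost wholly COL1A1, summed to 17.2 to 21.9 CPM in dex and 11.5 to 16 CPM in etoh, with COL1A2 at 0.

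After dexamethasone, 12 of the 116 solute carriers rose and 4 fell, and 100 did not pass the test (edgeR quasi-likelihood test, Benjamini-Hochberg adjusted p below 0.05 over all 14716 genes tested). The carriers that rose most were SLC45A4, SLC19A2 and SLC22A5, at 2.69-fold or more. SLC40A1, the iron exporter ferroportin, fell most. The 12 that rose are 10.3% of the members, beside 7.12% of all tested genes called higher, and the 4 that fell are 3.45%, beside 4.34% of all genes called lower. Called in either direction were 13.8% of the members and 11.5% of all genes, so the members as a list lay near the background. Their log2 fold changes ran from -1.31 to 1.84 with a median of 0.02, against a median of 0.00 over all genes tested. The estimate was positive for 64 members and negative for 52. Both dex libraries lay above both etoh libraries for 37 members and below them for 31, and for 48 the groups overlapped. Over all 14716 genes tested, the libraries lay so for 3617, 4240 and 6859 genes. An unadjusted edgeR p below 0.05 was found for 24 of the 116 members and for 3473 of the 14716 genes. All 116 members passed the filter on low counts. Their reads made up 0.923% and 0.932% of each dex library and 0.883% and 0.897% of each etoh library.

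**Figure D1:**
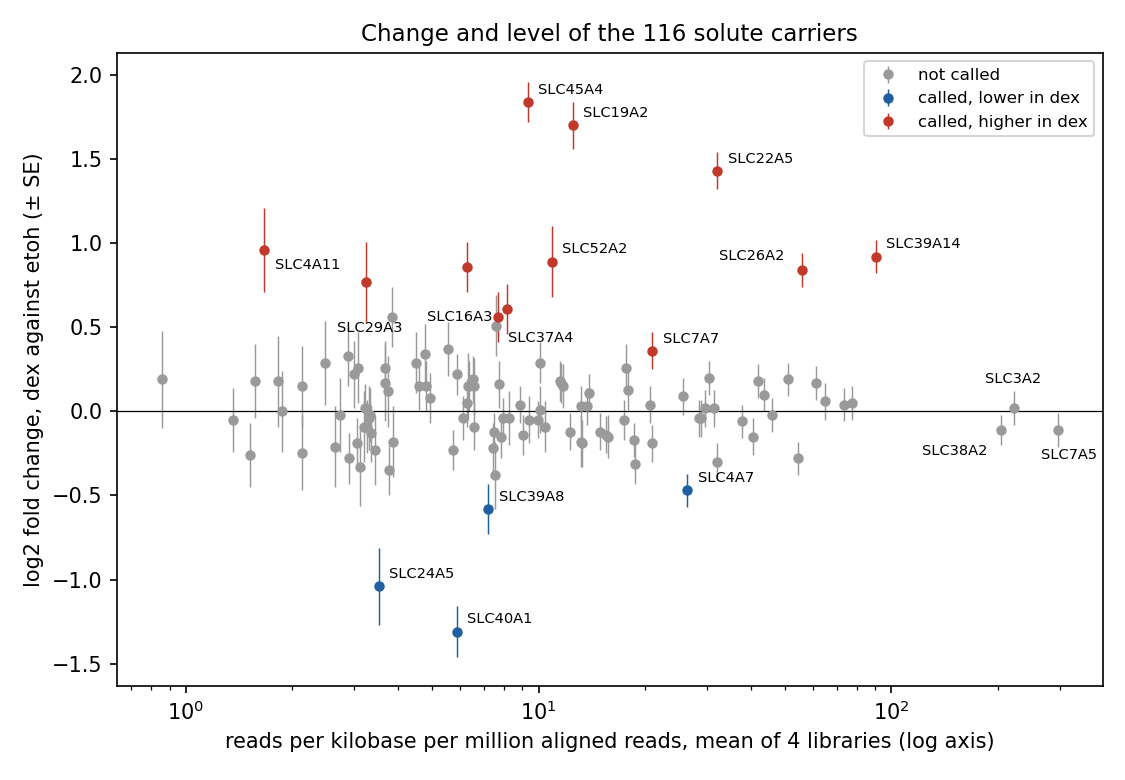
Log2 fold change of each of the 116 solute carriers, dex against etoh (vertical axis, with its SE as bars), against its level in RPKM (CPM per kilobase of transcript) averaged over the 4 libraries (horizontal log axis). Red and blue points are the 12 and 4 members called higher and lower, grey points the 100 not called, and the 3 most abundant members lie close to 0.

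The most abundant carriers were amino acid transporters, and none of those at the top changed past the threshold. Levels between genes are compared as RPKM (CPM divided by the transcript length in kilobases), averaged over the 4 libraries. SLC7A5, the light chain of the large neutral amino acid exchanger, was the highest at 296 RPKM. SLC3A2, the heavy chain that carries it to the cell surface, followed at 223 RPKM, and SLC38A2, a sodium-coupled neutral amino acid transporter, at 205 RPKM. Behind these 3 came SLC39A14 at 90.3, SLC16A1 at 77.4, SLC38A1 at 73.6, SLC1A5 at 65.0, SLC20A1 at 61.0, SLC26A2 at 55.8 and SLC16A4 at 54.4 RPKM. Neighbours in this order that differed by no more than the SD within groups were SLC3A2 (SD 18.3 RPKM) and SLC38A2, SLC16A1 (5.54) and SLC38A1, SLC1A5 (5.82) and SLC20A1, and SLC26A2 (4.82) and SLC16A4. Summing reads per kilobase over transcripts put SLC38A1 at 95.5 and SLC20A1 at 88.2 RPKM, so the order below the first 4 rests on how length is taken. The places of SLC39A14 and SLC26A2, both called higher, also rest on averaging both groups. In etoh alone SLC39A14, at 63.0 RPKM, lay below SLC16A1 (76.7), SLC38A1 (73.2) and SLC1A5 (64.2). SLC26A2, at 40.4 RPKM in etoh, lay below SLC22A3 and SLC39A10, which are not in this list. The first 3 kept their order in etoh. The median member had 7.88 RPKM and the lowest, SLC43A2, had 0.856 RPKM. In all, 11 members reached 50 RPKM and 38 stayed below 5 RPKM. The 3 members with the most reads held 28.9% of all member reads, and the 10 with the most held 53.6%.

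At the edge of the read minimum, SLC4A11, SLC43A2 and SLC6A8 entered with 214, 215 and 217 reads over the 4 libraries. SLC44A3, SLC29A2 and SLC1A1 stayed out with 198, 196 and 184 reads. Members therefore range from 214 to 54006 reads, with a median of 1038, and the SE of a log2 fold change from 0.09 to 0.29. Near the minimum, entry can rest on the group with more reads. SLC4A11, called higher, had 57 and 82 reads in dex and 31 and 44 in etoh. SLC24A5, called lower, had 37 and 48 reads in dex and 87 and 96 in etoh.

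Among carriers of metal ions, the zinc importer SLC39A14 rose while its relative SLC39A8 and the iron exporter SLC40A1 fell. SLC39A14, or ZIP14, brings zinc, manganese and iron that is not bound to transferrin into the cell. It stood at 488 and 497 CPM in dex and at 276 and 252 CPM in etoh, a log2 fold change of 0.92 (SE 0.10, edgeR adjusted p = 3.2e-07). SLC39A8, or ZIP8, which also carries zinc and manganese, stood at 16.5 and 21.6 CPM in dex and at 29.4 and 28.5 CPM in etoh. Its log2 fold change was -0.58 (SE 0.15, edgeR adjusted p = 0.011), and it was not called without dex replicate 1 (-0.41, edgeR adjusted p = 0.17). SLC40A1, the only exporter of iron known in human cells, stood at 10.7 and 11.7 CPM in dex and at 28.2 and 28.1 CPM in etoh, with no overlap. It fell by 1.31 on the log2 scale (SE 0.15, edgeR adjusted p = 1.2e-06). At vehicle level SLC39A14 was at 63.0 RPKM, SLC39A8 at 8.69 RPKM and SLC40A1 at 8.38 RPKM.

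**Figure D2:**
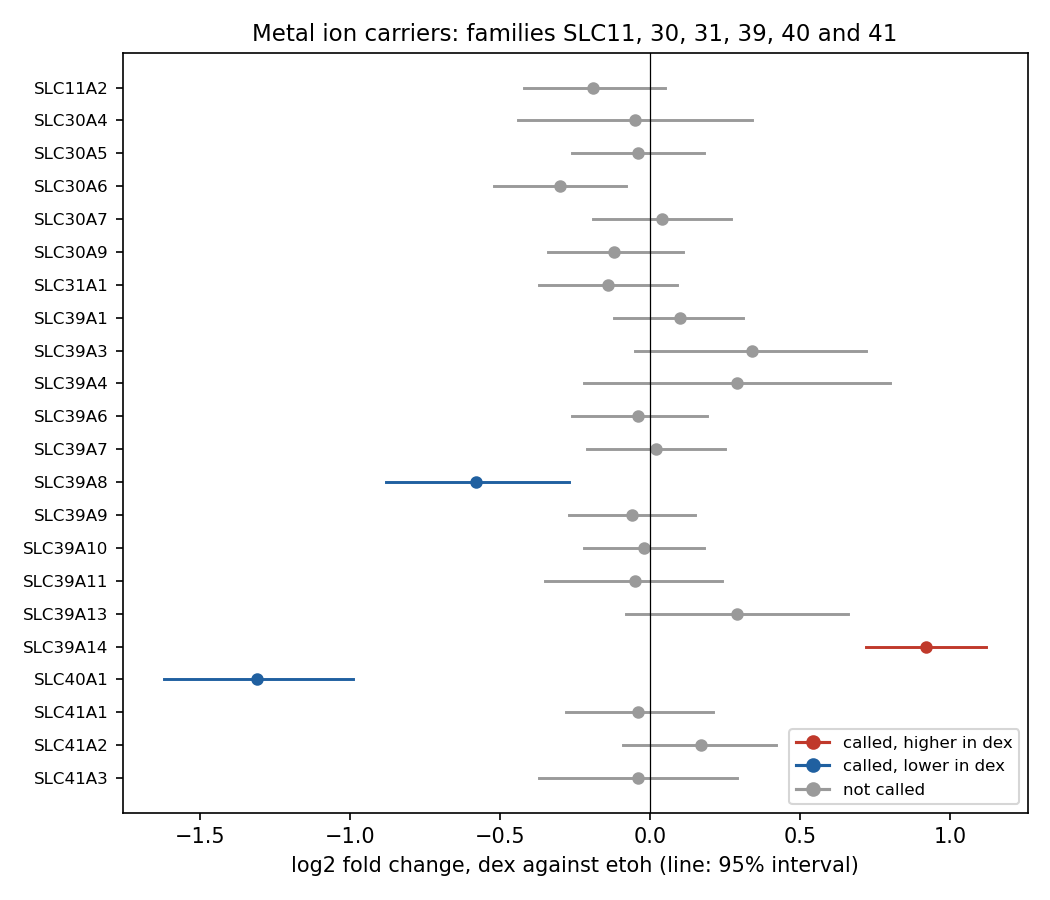
Log2 fold change, dex against etoh, of the 22 metal ion carriers (points, horizontal axis), with lines for the 95% interval and colour for called members. SLC39A14 lies at 0.92, SLC39A8 at -0.58 and SLC40A1 at -1.31, and the grey members cluster around 0.

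The other metal carriers stayed below the threshold. Of 22 metal ion carriers, 1 rose and 2 fell, and the median log2 fold change was -0.04. The SLC39 family had 11 members, 1 of them higher and 1 lower, and the remaining members lay between -0.06 and 0.34 on the log2 scale. None of the 5 SLC30 zinc exporters passed the test by edgeR, DESeq2 or limma-voom, with 1 of them at an unadjusted p below 0.05. That member was SLC30A6, at 99.0 and 106 CPM in dex and 136 and 121 CPM in etoh (log2 fold change -0.30, edgeR adjusted p = 0.071). edgeR called it lower with upper-quartile factors or library totals in place of TMM. SLC11A2, the divalent metal importer that takes up iron, stood at 55.3 and 62.9 CPM in dex and 70.3 and 66.5 CPM in etoh (log2 fold change -0.19, 95% interval -0.42 to 0.05). The copper importer SLC31A1 had a log2 fold change of -0.14 with an interval from -0.37 to 0.09.

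Among the carriers that rose most were SLC19A2, of the vitamin class, and SLC22A5, of the class of peptides and organic ions. SLC19A2 is the high-affinity thiamine transporter. It stood at 63.4 and 65.6 CPM in dex and at 23.9 and 16.7 CPM in etoh, and both dex libraries lay far above both etoh libraries. Its mean was 64.5 ± 1.58 CPM in dex and 20.3 ± 5.04 CPM in etoh (SD, n = 2), a log2 fold change of 1.70 (SE 0.14). The edgeR adjusted p was 9.5e-09. The other SLC19 members, the folate carrier SLC19A1 and the second thiamine transporter SLC19A3, had log2 fold changes of 0.16 (95% interval -0.14 to 0.46) and -0.04 (95% interval -0.43 to 0.35). SLC52A2, a riboflavin transporter, stood at 29.5 and 16.7 CPM in dex and at 10.8 and 14.3 CPM in etoh. The groups did not overlap, but its dex libraries lay far apart, with a log2 fold change of 0.89 (SE 0.21, edgeR adjusted p = 0.0059). Without dex replicate 1 it was 0.42 and not called (edgeR adjusted p = 0.25), nor was it called by the robust fit (edgeR adjusted p = 0.069). Of 8 carriers of vitamins, heme and urea, 2 rose and none fell. The median log2 fold change of this class was -0.04, with 3 estimates positive and 5 negative. The proton-coupled folate transporter SLC46A1 did not pass (log2 fold change -0.35, edgeR adjusted p = 0.14), though without dex replicate 2 it was called lower (-0.53, edgeR adjusted p = 0.039).

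SLC22A5, the sodium-dependent carnitine transporter, supplies the cell with the cofactor that fatty acids need to enter mitochondria. It stood at 114 and 130 CPM in dex and at 42.5 and 49.5 CPM in etoh. The means were 122 ± 11.5 and 46 ± 4.92 CPM (SD, n = 2). The log2 fold change was 1.43 (SE 0.11, edgeR adjusted p = 4.9e-09). Its nearest relative SLC22A4, which carries ergothioneine, shares 11% of its most-read transcript with AC034220.3 on the opposite strand. That antisense gene rose (log2 fold change 1.01, edgeR adjusted p = 0.0019). Whether its reads take part in the values of SLC22A4 was not tested. SLC22A4 stood at 16.9 and 21.9 CPM in dex and 16.4 and 11.6 CPM in etoh (log2 fold change 0.51, edgeR adjusted p = 0.076). It was called higher without dex replicate 1 (0.67, edgeR adjusted p = 0.0070) and without etoh replicate 1 (0.78, edgeR adjusted p = 0.0036). SLC22A3, an organic cation transporter and the most abundant of the family at 50.9 RPKM, stood at 238 and 251 CPM in dex and 231 and 205 CPM in etoh (log2 fold change 0.19, 95% interval -0.02 to 0.39). All 6 SLC22 members had positive estimates, between 0.15 and 1.43, and 1 of them was called. Over all genes tested, 7404 of 14716 estimates were positive. The family is 1 of many and was not picked in advance, so the common sign adds no support. SLC22A23, another member of the family, shares 21% of its most-read transcript with PSMG4 on the opposite strand. Of the 13 carriers of peptides and organic ions, 1 rose and none fell, and the median log2 fold change was 0.19. The vesicular monoamine transporter SLC18A2 was not called either (log2 fold change 0.29, edgeR adjusted p = 0.13). Of its most-read transcript, 55.7% is shared with PDZD8 on the opposite strand. The strand setting of the counting is not given, so reads of that stretch cannot be told apart.

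**Figure D3:**
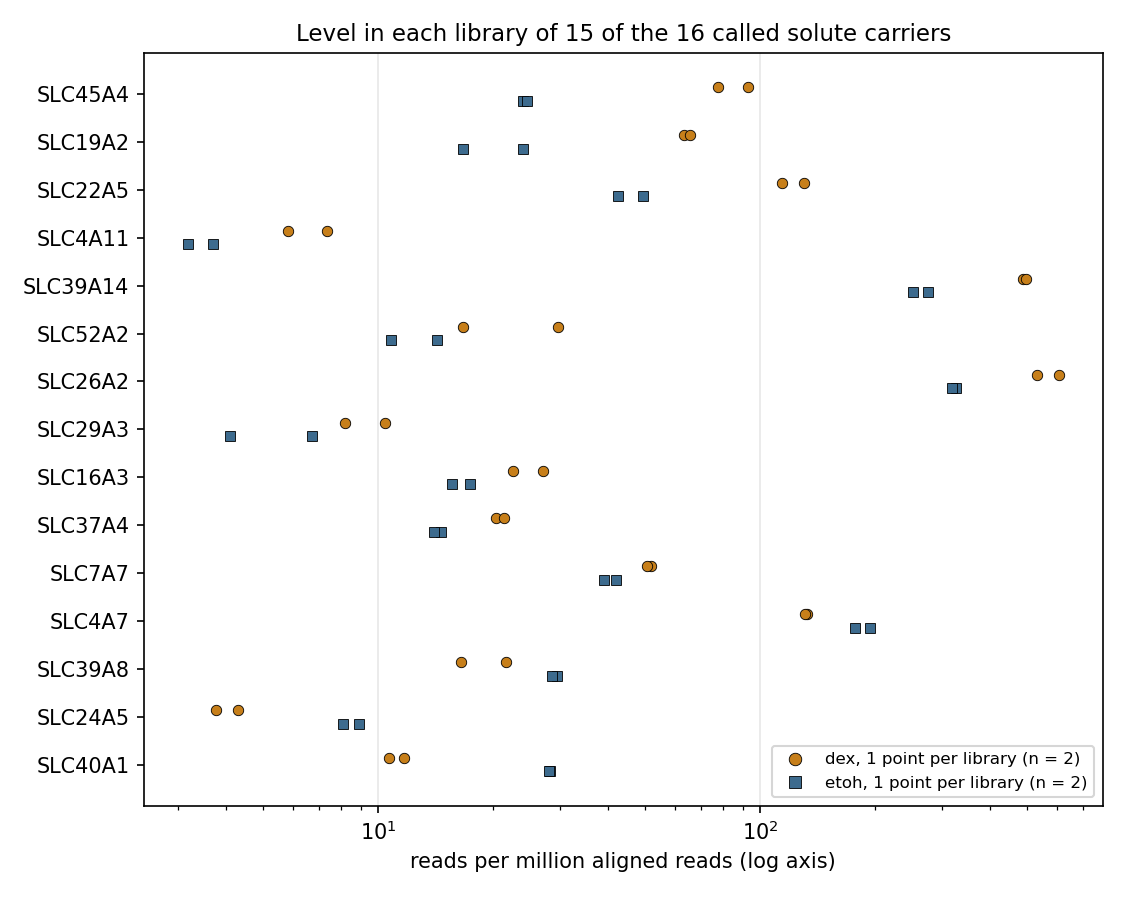
CPM in each library (log axis) for 15 of the 16 called solute carriers, with the 2 dex and the 2 etoh libraries as separate points. The groups are far apart for SLC45A4, SLC22A5, SLC19A2 and SLC40A1 and close together for SLC7A7.

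Sequence upstream of the start was looked at for members with a promoter entry, since the glucocorticoid receptor binds DNA. RefSeq promoters (GRCh38.p14, 250 bases before to 50 after the start, the first listed start of a gene) matched 94 of the 116 members, 7 of the 12 that rose and all 4 that fell. Among those not matched were SLC45A4 and SLC39A14. The 250 bases upstream are shown for 3 that rose and for the exporter that fell, 5′ to 3′ on the strand of the gene. Capitals mark the GC box GGGCGG on either strand, which is not the hexamer of the receptor given below. SLC24A5, which also fell, held no GC box and is not shown.
SLC22A5, chr5:132369460-132369709, plus strand: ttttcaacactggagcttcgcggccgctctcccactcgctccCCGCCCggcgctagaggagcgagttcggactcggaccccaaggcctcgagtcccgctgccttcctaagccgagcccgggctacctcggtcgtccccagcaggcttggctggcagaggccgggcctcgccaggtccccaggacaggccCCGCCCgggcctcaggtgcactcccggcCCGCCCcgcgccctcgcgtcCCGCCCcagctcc
SLC19A2, chr1:169485971-169486220, minus strand: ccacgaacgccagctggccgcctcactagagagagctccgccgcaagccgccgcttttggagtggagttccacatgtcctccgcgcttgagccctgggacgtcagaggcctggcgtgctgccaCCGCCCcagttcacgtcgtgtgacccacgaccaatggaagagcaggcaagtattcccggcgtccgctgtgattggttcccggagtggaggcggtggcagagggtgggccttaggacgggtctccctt
SLC26A2, chr5:149960508-149960757, plus strand: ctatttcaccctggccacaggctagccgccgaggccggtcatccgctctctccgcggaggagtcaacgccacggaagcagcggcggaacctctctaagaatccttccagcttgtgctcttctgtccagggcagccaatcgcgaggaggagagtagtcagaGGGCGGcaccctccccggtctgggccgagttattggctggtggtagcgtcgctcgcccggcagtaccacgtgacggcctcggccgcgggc
SLC40A1, chr2:189580787-189581036, minus strand: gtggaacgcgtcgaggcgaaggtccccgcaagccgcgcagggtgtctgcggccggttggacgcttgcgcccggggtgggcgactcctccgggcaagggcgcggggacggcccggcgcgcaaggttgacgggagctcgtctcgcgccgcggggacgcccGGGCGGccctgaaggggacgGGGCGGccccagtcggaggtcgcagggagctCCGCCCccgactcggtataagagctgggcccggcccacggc

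The GC box stood in 4 copies upstream of SLC22A5, in 1 copy each upstream of SLC19A2 and SLC26A2, and in 3 copies upstream of SLC40A1. Over the 300-base promoter, 70 of the 94 members held GGGCGG on either strand (74.5%), against 44.6% of all 27305 promoters. Members had a median GC content of 66.8%, against 58.3% over all promoters. Among the called members with an entry, 6 of 7 that rose and 3 of 4 that fell held the box. The hexamer AGAACA, which the receptor recognises as a part of its site, stood on either strand in 8 of the 94 members (8.51%) and in 14.9% of all promoters. It was found in none of the 7 promoters of carriers that rose and none of the 4 of carriers that fell, though SLC4A7 and SLC7A7 each had it at 1 other listed start. The inverted pair of this hexamer spaced by 3 bases, with at most 2 mismatches, stood in 1.06% of the members and 1.44% of all promoters. The set of all promoters was not limited to expressed genes, while members were chosen by their reads. Whether members differ from other expressed genes in these matches or in GC content was not tested. These matches describe the letters in a window of 300 bases and nothing beyond it.

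By the annotation of GENCODE 29 (GRCh38), SLC22A5 spans bases 132369752 to 132395614 of chromosome 5 on the plus strand, and SLC26A2 spans bases 149960737 to 149993455 of the same chromosome and strand. SLC19A2 spans bases 169463909 to 169486003 of chromosome 1 on the minus strand. SLC40A1 spans bases 189560579 to 189583758 of chromosome 2 on the minus strand, and the RefSeq start used here lies inside that span.

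Of the carriers assigned to sugars, SLC45A4 showed the largest increase of any member. SLC45 proteins are related to proton-coupled sucrose transporters. SLC45A4 stood at 93.2 and 77.4 CPM in dex and at 24 and 24.5 CPM in etoh. Its mean rose from 24.2 ± 0.364 to 85.3 ± 11.2 CPM (SD, n = 2), 3.57-fold (log2 fold change 1.84, SE 0.12, edgeR adjusted p = 2.9e-10). SLC37A4, which brings glucose 6-phosphate into the endoplasmic reticulum for the last step of glucose release, stood at 20.3 and 21.3 CPM in dex and at 14.6 and 14 CPM in etoh. It rose by 0.56 on the log2 scale (SE 0.15, edgeR adjusted p = 0.016). It was not called without etoh replicate 2 (0.51, edgeR adjusted p = 0.081). Of 9 members of this class, these 2 rose and none fell. Classes go by family number, so a member may carry another substrate than its class names. The myo-inositol transporter SLC5A3 stood at 54.5 and 66.3 CPM in dex and 75.5 and 69.1 CPM in etoh (log2 fold change -0.23, edgeR adjusted p = 0.23). SLC2A14 shares 18.5% of its most-read transcript with a near-identical glucose transporter gene, so reads placed on it are uncertain.

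Among carriers of inorganic ions, 3 of 22 rose and 2 fell. SLC26A2, the sulfate transporter whose cargo is needed for sulfated proteoglycans, was the most abundant of those that changed. It stood at 530 and 606 CPM in dex and at 326 and 319 CPM in etoh (log2 fold change 0.84, SE 0.10, edgeR adjusted p = 1.5e-06). SLC4A11, a membrane carrier that moves protons, was at 5.80 and 7.36 CPM in dex and at 3.17 and 3.70 CPM in etoh. It had the fewest reads of any member, and its log2 fold change of 0.96 carried an SE of 0.25 (edgeR adjusted p = 0.013). It was not called without dex replicate 2 (0.77, edgeR adjusted p = 0.11) or without etoh replicate 1 (0.87, edgeR adjusted p = 0.060).

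In the other direction, the sodium-bicarbonate cotransporter SLC4A7 stood at 133 and 131 CPM in dex and at 194 and 177 CPM in etoh. It fell by 0.47 on the log2 scale (SE 0.10, edgeR adjusted p = 0.0024), and without etoh replicate 1 it lay at the threshold and was not called (-0.39, edgeR adjusted p = 0.050). SLC4A7 brings base into the cell. SLC24A5, a potassium-dependent sodium-calcium exchanger known from melanosomes, was at 3.76 and 4.31 CPM in dex and at 8.91 and 8.08 CPM in etoh (log2 fold change -1.04, SE 0.23, edgeR adjusted p = 0.0030). Of its most-read transcript, 70.6% is shared with MYEF2 on the opposite strand, and the strand setting of the counting is not given, so reads of these genes cannot be told apart. MYEF2 itself stood at 34.8 and 42.0 CPM in dex and 47.4 and 47.3 CPM in etoh (log2 fold change -0.28, edgeR adjusted p = 0.16). None of the 5 SLC12 cation-chloride cotransporters passed by edgeR, DESeq2 or limma-voom, with 1 at an unadjusted p below 0.05. That was SLC12A2, at 90.3 and 106 CPM in dex and 135 and 112 CPM in etoh (log2 fold change -0.31, edgeR adjusted p = 0.094). The phosphate importer SLC20A1, among the 10 most abundant members, was at 193 and 193 CPM in dex and 176 and 171 CPM in etoh (log2 fold change 0.17, 95% interval -0.03 to 0.38).

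Amino acid carriers were the largest class. Of 23 members, 1 rose and none fell, and log2 fold changes ran from -0.22 to 0.36 with a median of 0.02. The member that rose was SLC7A7, a light chain for cationic amino acids that pairs with SLC3A2, at 51.8 and 50.5 CPM in dex and 39 and 42.0 CPM in etoh. Its log2 fold change of 0.36 (SE 0.11, edgeR adjusted p = 0.042) was the smallest increase called, and the call was lost in 10 of the 15 alternative fits. Leaving out any 1 of the 4 libraries was among these, with edgeR adjusted p between 0.074 and 0.29. SLC7A5 stood at 1260 and 1150 CPM in dex and 1270 and 1380 CPM in etoh (log2 fold change -0.11, 95% interval -0.32 to 0.09). SLC3A2 stood at 441 and 402 CPM in dex and 394 and 451 CPM in etoh, and the groups overlapped (log2 fold change 0.02, 95% interval -0.19 to 0.23). SLC38A2 was at 863 and 839 CPM in dex and 897 and 962 CPM in etoh (log2 fold change -0.11, 95% interval -0.30 to 0.09). These intervals leave no room for a change as large as that of SLC39A14 in either direction.

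Other amino acid carriers moved little. The glutamine transporter SLC1A5 had a log2 fold change of 0.06 (95% interval -0.16 to 0.28) and SLC38A1 of 0.04 (95% interval -0.16 to 0.23). The taurine transporter SLC6A6 was at 257 and 289 CPM in dex and 251 and 240 CPM in etoh (log2 fold change 0.18, edgeR adjusted p = 0.29), and SLC6A15 had a log2 fold change of 0.33 (edgeR adjusted p = 0.29). None of the 6 SLC38 members passed by edgeR, DESeq2 or limma-voom, and none had an unadjusted p below 0.05.

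Of 5 carriers of the SLC16 monocarboxylate family, 1 rose. SLC16A3, the lactate exporter of cells that run on glycolysis, stood at 27.1 and 22.5 CPM in dex and at 15.6 and 17.4 CPM in etoh (log2 fold change 0.61, SE 0.15, edgeR adjusted p = 0.0092). It was not called without dex replicate 1 (0.46, edgeR adjusted p = 0.12) or without etoh replicate 1 (0.54, edgeR adjusted p = 0.054). SLC16A3 shares 7.02% of its most-read transcript with CSNK1D on the opposite strand, which also rose, from 105 and 118 CPM in etoh to 178 and 159 CPM in dex (log2 fold change 0.62, edgeR adjusted p = 2.0e-04). Whether reads of that stretch take part in the change of SLC16A3 was not tested. SLC16A1, the more abundant lactate carrier, was at 277 and 309 CPM in dex and 274 and 300 CPM in etoh (log2 fold change 0.05, 95% interval -0.15 to 0.25). SLC16A4 stood at 97.6 and 103 CPM in dex and 125 and 123 CPM in etoh (log2 fold change -0.28, edgeR adjusted p = 0.080).

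Of 8 carriers of nucleosides and nucleotide sugars, 1 rose and none fell. SLC29A3, a nucleoside transporter of lysosomes, was at 10.4 and 8.17 CPM in dex and 4.10 and 6.73 CPM in etoh (log2 fold change 0.77, SE 0.24, edgeR adjusted p = 0.035). It was not called without dex replicate 1 (0.59, edgeR adjusted p = 0.21) or without etoh replicate 1 (0.49, edgeR adjusted p = 0.34). Its plasma membrane relative SLC29A1 was at 49.8 and 36.7 CPM in dex and 32.7 and 40.3 CPM in etoh, with overlapping groups (log2 fold change 0.26, edgeR adjusted p = 0.28), but it was called without dex replicate 2 (0.47, edgeR adjusted p = 0.021). SLC35A4 had a log2 fold change of 0.20 (edgeR adjusted p = 0.25). It shares 10.4% of its most-read transcript with APBB3 on the opposite strand.

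None of the 6 carriers of lipids, acetyl-CoA and choline passed by edgeR, DESeq2 or limma-voom, with 1 at an unadjusted p below 0.05. That was SLC44A2, of the choline transporter-like family, at 15.2 and 12 CPM in dex and 8.81 and 9.84 CPM in etoh (log2 fold change 0.56, 95% interval 0.18 to 0.94, edgeR adjusted p = 0.053). It was called by edgeR without dex replicate 2 (0.72, adjusted p = 0.012), with no count filter (0.55, adjusted p = 0.034) and with the robust fit (0.56, adjusted p = 0.045). SLC44A1 had a log2 fold change of -0.17 and the fatty acid transporter SLC27A2 of -0.15, with edgeR adjusted p of 0.34 and 0.43. SLC27A2 shares 23.4% of its most-read transcript with ATP8B4 on the opposite strand, and reads of that stretch cannot be told apart.

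**Figure D4:**
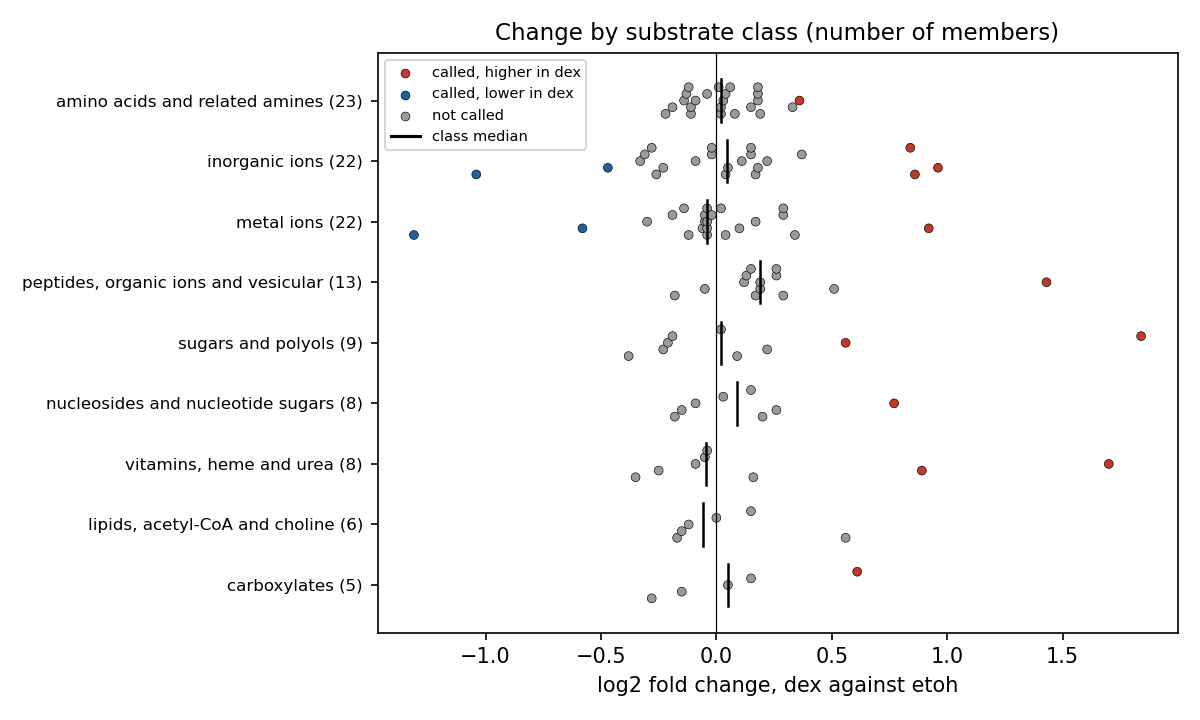
Log2 fold change, dex against etoh, of each solute carrier by substrate class, with 1 point per member and colour for members called higher or lower. The amino acid class lies within -0.22 to 0.36, while metal ions run from -1.31 to 0.92 and sugars up to 1.84.

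For carriers that were not called, the width of the interval says what the data could have shown. Of the 100, 76 had a 95% interval within 1.5-fold in either direction and all 100 had one within 2-fold. A change of 2-fold or more was thus outside the interval of each of these carriers, and a change of 1.5-fold or more outside that of 76. Among the called members 5 reached 2-fold, namely SLC45A4, SLC19A2 and SLC22A5 upwards and SLC40A1 and SLC24A5 downwards.

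Transcript models were compared with their genes. Over the 16 called members, 63 transcripts had at least 100 reads, and none of these belonged to SLC4A11. All 63 moved in the direction of their gene. Transcripts of a gene share reads, and they make up the sum by which the gene was called. The common direction is thus largely given by the choice of genes and adds no support. The most-read models of SLC39A14 took 42.0% and 41.9% of its reads, at 205 and 208 CPM in dex and 118 and 106 CPM in etoh for the first and at 205 and 211 CPM and 114 and 104 CPM for the second. SLC26A2 had 98.6% of its reads on 1 model and SLC40A1 96.8%. SLC45A4 had 60.2% on a model at 56.8 and 45.9 CPM in dex and 14.9 and 14.6 CPM in etoh.

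Shared sequence touched further called members. Of 111 members whose transcript was matched, 85 shared no stretch of 50 bases at 98% identity with another expressed gene, and 16 shared more than 10% of their length. SLC52A2 shared 21.7% with FBXL6 and SLC37A4 shared 14% with TRAPPC4, both on the opposite strand. Those partners had log2 fold changes of 0.09 and 0.12. SLC22A5 shared 2.26% with the antisense gene AC034220.3, which rose from 4.61 and 5.89 CPM in etoh to 10.1 and 10.9 CPM in dex (log2 fold change 1.01, edgeR adjusted p = 0.0019).

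Proteins that pair with or regulate these carriers were read from a list of 24, of which 23 were tested, 3 rose and none fell. The called share of this list is 13%, near the 11.5% of all genes. SGK1, a kinase that raises the surface level of many carriers, stood at 212 and 237 CPM in dex and 79.8 and 89.0 CPM in etoh (log2 fold change 1.43, edgeR adjusted p = 9.9e-10). NEDD4, a ubiquitin ligase of the family that removes carriers from the surface, stood at 467 and 522 CPM in dex and 302 and 287 CPM in etoh (log2 fold change 0.77, edgeR adjusted p = 4.8e-06). CAB39, a scaffold for the kinases that act on cation-chloride cotransporters, stood at 152 and 160 CPM in dex and 130 and 121 CPM in etoh (log2 fold change 0.33, edgeR adjusted p = 0.033). BSG, the chaperone of the lactate carriers SLC16A1 and SLC16A3, was at 201 and 186 CPM in dex and 163 and 176 CPM in etoh and was not called. Of 12 organic anion transporters of the SLCO family, 7 were tested and none was called by edgeR, DESeq2 or limma-voom, with none at an unadjusted p below 0.05. Of 25 SLC genes with the letters B to F, 19 were tested and none was called by these tools, with 3 at an unadjusted p below 0.05. Over all 14716 genes tested by edgeR, 3473 had an unadjusted p below 0.05.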

How the data were processed

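RNA of A549 cells was sequenced in 4 libraries, 2 per group, after extraction on columns with a DNase step, per the labels' protocols. The authors deposited raw read counts per transcript for each library, with transcript length. CASAVA, Bowtie, SAMtools and DESeq2 are named in the submitters' processing notes, with no version or role. Not given in the sources used here are the genome build and the alignment and strand settings. The row of unaligned reads, 17.2% to 18.7% of all reads, was left out.

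Reads were summed by gene symbol over 119207 transcripts. CPM divides by all reads aligned to named transcripts, and RPKM divides CPM by the read-weighted mean transcript length. Counts were tested with edgeR 4.0.16 (R 4.3.3): filterByExpr, TMM, quasi-likelihood test, two-sided, Benjamini-Hochberg adjustment over 14716 genes, threshold 0.05. Biological variation between libraries (BCV) came to 8.07%. The SE is the absolute log2 fold change divided by the square root of F, and 95% intervals rest on it. Floors and intervals cover counting error or the spread between libraries only, since reads carry no molecular identifiers. The code was tested on simulated data. Chi-square over degrees of freedom was 5.39 within dex and 7.00 within etoh, so no library was a duplicate.

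The members, substrate classes (by family number) and lists were chosen with earlier results of these data known. Named were called members with non-overlapping libraries (up to 12 per direction), the 6 with the smallest p per direction, the 10 highest per kilobase, the 3 with the smallest p per class and the 3 on each side of the read minimum. A few members that this rule names are counted but not reported by name here. SLC11A2, SLC12A2, SLC19A1, SLC19A3, SLC22A3, SLC2A14, SLC30A6 and SLC31A1 were added after their values were seen. Shared sequence was found with blastn 2.17.0 in GENCODE 29 transcripts. Alternatives were 3 other scalings, 2 other count filters, DESeq2 1.42.0, limma-voom (limma 3.58.1), a robust fit, a replicate block, the most-read transcript, removal of mitochondrial genes and removal of each library, with a stricter threshold and other read minimums. The crossed pairing and the removal of members that share sequence were added after the data were seen.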

Additional observations from a re-analysis of the deposited data

How the results depend on the processing

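Of the 16 called solute carriers, 8 were called in all 15 alternative fits, among them SLC19A2, SLC22A5, SLC24A5, SLC26A2, SLC39A14, SLC40A1 and SLC45A4. All of these fits use the same counts, so none bears on the sequence that SLC24A5 shares with MYEF2 on the opposite strand. DESeq2 called 1038 genes in the whole table in place of 1687, and 6 members higher in place of 12. SLC16A3, SLC29A3, SLC37A4, SLC4A11, SLC52A2 and SLC7A7 were not called by it. Leaving out 1 library gave 1100 to 2004 called genes, 9 to 12 members higher and 3 to 6 lower. SLC4A7 was lost without etoh replicate 1, SLC39A8 and SLC52A2 without dex replicate 1, SLC37A4 without etoh replicate 2, SLC4A11 without dex replicate 2 or etoh replicate 1, and SLC16A3 and SLC29A3 without replicate 1 of either group. Gained without 1 library were SLC12A2, SLC20A2, SLC22A4, SLC29A1, SLC30A6, SLC44A2 and SLC46A1. A library left alone in its group took its spread from the remaining pair. The most-read transcript in place of the gene sum lost SLC37A4, SLC39A8, SLC4A11, SLC52A2 and SLC7A7. The robust fit lost SLC52A2 and gained SLC44A2. With no count filter SLC22A4 and SLC44A2 were gained, and with upper-quartile factors or library totals SLC30A6 was gained, with SLC7A7 lost in all 3. An adjusted p of 0.01 left 1013 genes.

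The deviations of same-numbered libraries from their group means had a correlation of -0.14. With 2 libraries per group, both pairs give this same value by construction, so it does not settle how the numbers pair. Whether they are crossed between the groups is not known. The replicate block called 1562 genes with 11 members higher and 4 lower. With the numbers crossed, the block called 2819 genes, 15 members higher and 7 lower.

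Near 0, log2 estimates changed sign. Without 1 library, SLC3A2 ran from -0.06 to 0.10, SLC1A5 from -0.07 to 0.18, SLC16A1 from -0.03 to 0.12 and SLC38A1 from -0.03 to 0.10, and SLC3A2 went to -0.03 with the most-read transcript. Summing reads per kilobase over transcripts gave higher levels: SLC3A2 260, SLC38A2 214, SLC39A14 109, SLC38A1 95.5, SLC16A1 90.4, SLC20A1 88.2, SLC1A5 74.6, SLC26A2 64.2 and SLC16A4 57.2 RPKM, so the order of the levels below the first 4 depends on this choice. Why these values moved was not tested.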

Other observations

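Solute carriers below 200 reads were not members, but 3 of them were called. Of 165 such genes, 44 had no read in any library and 36 were tested, of which 3 were called higher and 0 lower by edgeR, with 5 at an unadjusted p below 0.05. They are named here after their values were seen. SLC6A19 and SLC16A12 passed the filter on low counts through the dex libraries, where they are high, so the filter in part sets the direction of these calls and the 3 against 0 supports nothing. SLC16A12, a creatine transporter of the monocarboxylate family, had 42 and 56 reads in dex and 6 and 7 in etoh (log2 fold change 2.96, SE 0.38, edgeR adjusted p = 6.2e-06). SLC45A1, a relative of SLC45A4, had 44 and 39 reads in dex and 12 and 14 in etoh (log2 fold change 1.74, SE 0.35, edgeR adjusted p = 0.0012). SLC6A19, a neutral amino acid transporter known from gut and kidney, had 12 and 12 reads in dex and 0 and 0 in etoh, at least 8.26-fold higher when the etoh sum is set to the floor of 3 counts. The libraries of the groups did not overlap for any of these 3 genes, but they were named because they were called, so this adds no support. Over all 14716 genes tested, both dex libraries lay above both etoh libraries for 3617.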
